A study of Mus musculus with 47 samples.

Results

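The 10 genes described here mark GABAergic interneurons of the hippocampus: Gad1, Gad2, Slc32a1, Pvalb, Sst, Vip, Cck, Npy, Reln and Lamp5. They were taken by symbol from the table of hippocampal read counts, where they are 10 of 35486 genes. All 10 passed the filter on low counts, which left 17778 genes to test. The table holds 47 male C57BL/6J mice, with 1 library from the hippocampus of each. Young Veh mice (n = 13) were 3.75 to 5.26 months old and received vehicle. Young mPF4 mice (n = 12) were 4.08 to 5.03 months old and received recombinant mouse platelet factor 4 (mPF4), a chemokine released by platelets. Aging Veh mice (n = 12) were 17.5 to 20.0 months old and received vehicle. Aging mPF4 mice (n = 10) were 17.4 to 20.2 months old and received mPF4. Both agents were given systemically, by intraperitoneal injection, and the study asked whether systemic mPF4 alters gene expression in the young and the aging hippocampus.

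Interneurons are the inhibitory cells of the hippocampal circuit and are far fewer than the glutamatergic principal cells of the dentate gyrus and the CA fields. Nearly all of them make GABA with the glutamate decarboxylases and load it into synaptic vesicles with the vesicular transporter, and they differ in the calcium-binding proteins, neuropeptides and secreted proteins that they add. Basket cells with parvalbumin inhibit the cell bodies of principal cells, cells with somatostatin inhibit their dendrites, cells with VIP mostly inhibit other interneurons, and neurogliaform cells release GABA diffusely.

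Libraries held 2242879 to 21112908 counts, with a median of 10374007, and of the 8 shallowest, 1 was from Young Veh, 2 from Young mPF4, 4 from Aging Veh and 1 from Aging mPF4. All 10 markers of hippocampal principal cells were read in every library. The lowest was Dsp with 49 reads in 1 library, whereas Slc17a7, the vesicular glutamate transporter of principal cells, had at least 1371. Choroid plexus, a tissue next to the hippocampus, was present in unequal amounts, since the mean log2 counts-per-million (CPM) level of its 10 markers averaged 4.17 and 4.30 in young mice given vehicle and mPF4, and 2.17 and 2.48 in the corresponding aging mice. In the labels' numbering of the libraries, aging mice held numbers 1 to 23 and young mice 24 to 48, so a drift along that numbering and age cannot be told apart. Within aging mice, vehicle held numbers 1 to 12 and mPF4 13 to 23, so such a drift and mPF4 cannot be told apart there either. In young mice the treatments were mixed along the numbering.

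Levels of the 10 markers were read in every mouse. The gene with the fewest reads in any library was Pvalb, at 26, and the gene with the most was Gad1, at 9487. Per length, as CPM per kilobase of the longest annotated transcript (RPKM), the order over 47 libraries was Sst (234 ± 32.8, SD), Cck (217 ± 23.95), Gad1 (125 ± 8.11), Npy (96.4 ± 14.2), Gad2 (26.4 ± 2.91), Pvalb (19.5 ± 3.58), Lamp5 (18.1 ± 2.72), Vip (9.58 ± 1.61), Slc32a1 (7.79 ± 1.56) and Reln (2.61 ± 0.302). Neighbours in this order did not always keep it within a library. Sst exceeded Cck in 32 of 47 libraries and Pvalb exceeded Lamp5 in 28, and these differences were not tested. Vip exceeded Slc32a1 in 38 libraries, Gad2 exceeded Pvalb in 42 and Gad1 exceeded Npy in 43, while the other 4 neighbouring pairs kept their order in all 47. The order rests on annotated transcript length and on libraries of full-length cDNA, and it compares transcript amounts, not cell numbers.

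**Figure D1:**
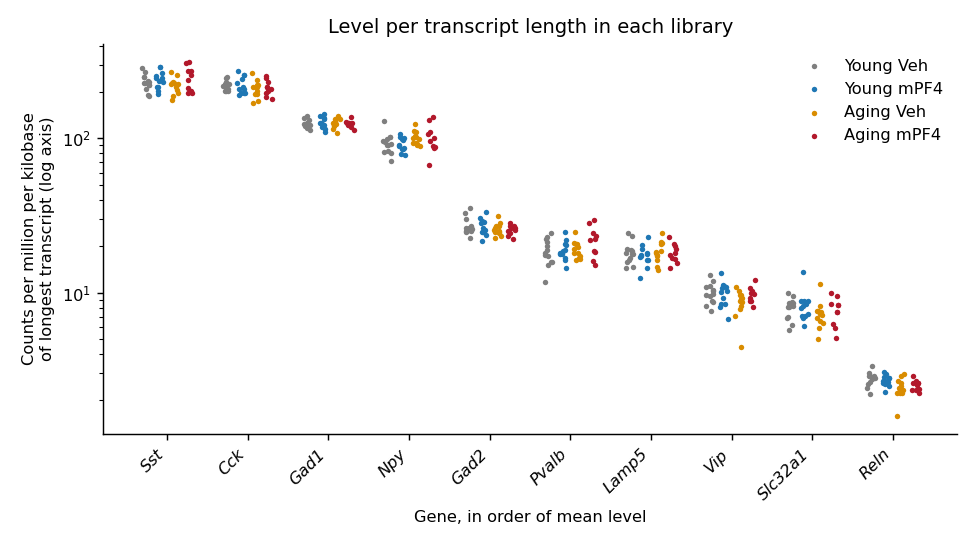
Level of each marker as CPM per kilobase of the longest annotated transcript (log axis) in each of 47 libraries, 1 point per mouse, coloured by group and ordered by mean level. Sst and Cck lie together at the top (means of 234 and 217), Reln lies lowest (2.61), and the 4 groups overlap for every gene.

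The enzymes and the transporter of GABA varied unequally between mice. Gad1 (chr2:70553072-70602014, plus strand, GRCm38), which encodes the cytosolic glutamate decarboxylase GAD67, was the steadiest of the 10. Young vehicle mice spanned 408 to 504 CPM around a median of 447, and young mPF4 mice 395 to 521 around 448. Aging vehicle mice spanned 388 to 500 around 455, and aging mPF4 mice 406 to 498 around 451. The 4 ranges overlapped almost completely. The pooled SD within groups was 0.096 on the log2 scale for Gad1, against a median of 0.21 over all genes tested, which put Gad1 at percentile 4.94. Gad2 (chr2:22622205-22693874, plus strand), which encodes the vesicle-associated decarboxylase GAD65, had a within-group SD of 0.15. Its medians were 150 CPM (vehicle) and 149 (mPF4) at the young age and 145 and 148 at the aging one. Slc32a1 (chr2:158610767-158615748, plus strand), which encodes the vesicular GABA transporter VGAT, had the largest within-group SD, 0.28. Gad1 had 1140 to 9487 reads per library and Slc32a1 51 to 619, and the part of read number in their SDs was not tested. Slc32a1 spanned 15.9 to 27.7 CPM with vehicle and 17.0 to 37.9 with mPF4 at the young age. At the aging one it spanned 13.9 to 31.6 with vehicle and 14.3 to 27.7 with mPF4, so the groups overlapped widely. The exons of Slc32a1 overlap those of the antisense gene Gm14205, which held 2281 reads against 10530 for Slc32a1, and because the libraries do not mark strand the reads of the pair cannot be told apart.

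**Figure D2:**
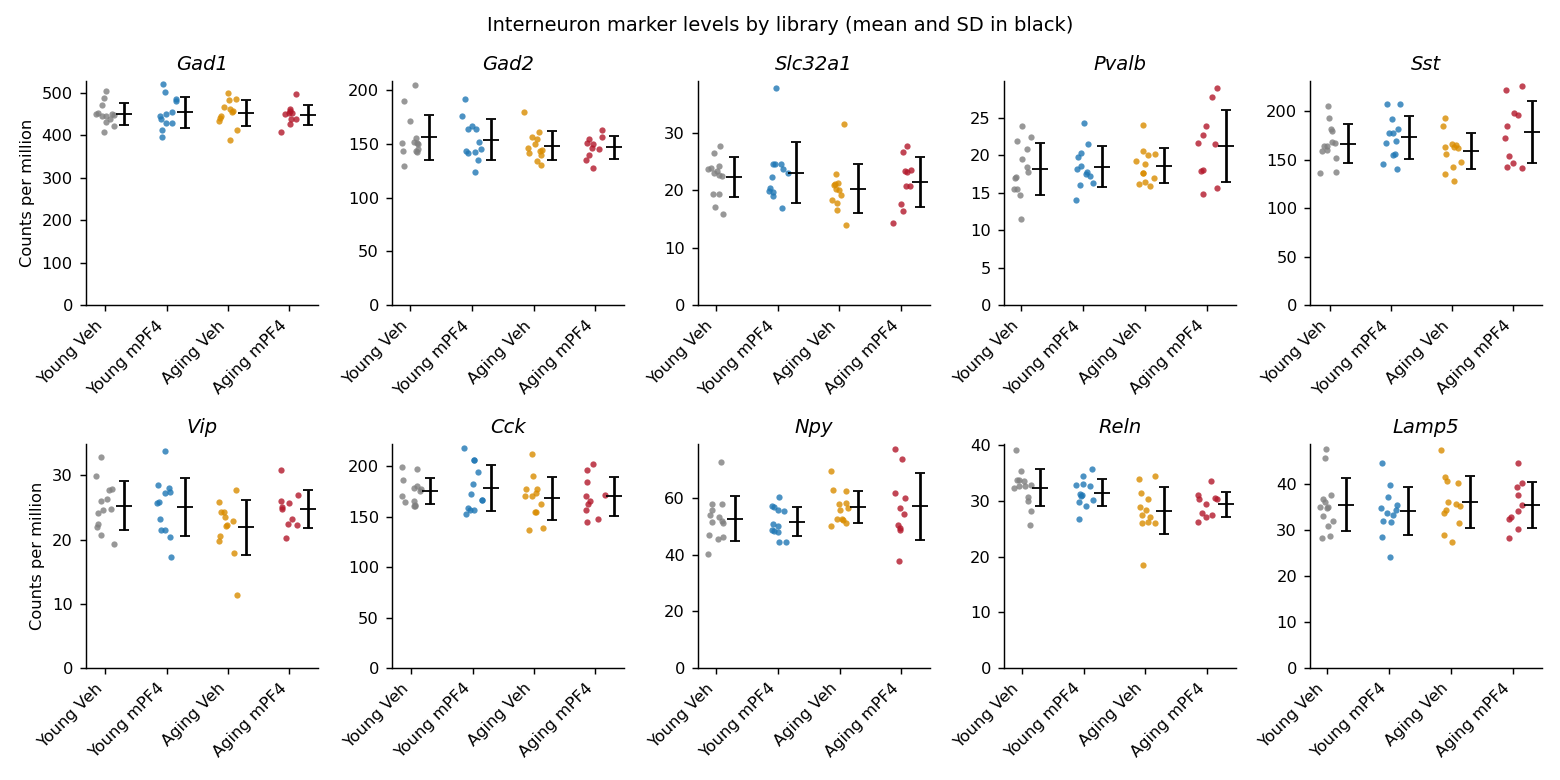
Level of the 10 markers in CPM of the normalised library, 1 point per mouse, with the mean and SD of each group in black and each axis starting at 0. The groups overlap in every panel, Gad1 is the tightest, and 1 Aging Veh mouse has the lowest value of both Vip (11.3) and Reln (18.5).

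To ask whether interneuron markers differ with age, aging mice were compared with young mice within each treatment and averaged over both. None of the 10 markers passed an adjusted p of 0.05 in edgeR's quasi-likelihood test. With vehicle 0 of 10 were called, against 2.77% of all genes tested (2.16% higher and 0.607% lower). With mPF4 0 of 10 were called, against 0.332% (0.304% higher and 0.0281% lower), and averaged over treatments 0 of 10, against 4.71% (3.31% higher and 1.41% lower). DESeq2 also called 0 of 10 in each comparison, against 3.8%, 0.458% and 4.73% of the genes it adjusted. At an unadjusted p under 0.05, Reln and Vip passed with vehicle (15.2% of all genes tested did), Pvalb passed with mPF4 (8.27% did) and Reln passed in the average (19% did). In the average, 7 of 10 markers lay below 0 and 3 above, with a median log2 fold change of -0.04 beside -0.0041 for all genes tested. In bulk tissue, fewer cells of a type and less RNA per cell cannot be told apart.

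Reln had the smallest p of the 10 with age. It encodes reelin (chr5:21884454-22344702, minus strand), a large secreted glycoprotein made in the adult hippocampus by interneurons, many of them neurogliaform, and by the remaining Cajal-Retzius cells. With vehicle, young mice spanned 25.7 to 39.3 CPM around a median of 32.8 and aging mice 18.5 to 34.5 around 27.9. With mPF4, young mice spanned 26.7 to 35.8 around 31.2 and aging mice 26.2 to 33.5 around 29.9. Both aging medians lay under both young medians, but the ranges overlapped and only 1 of 22 aging mice, Aging Veh replicate 1, lay below all 25 young mice. Averaged over treatments the log2 fold change was -0.14 ± 0.046 (SE), an interval of -0.23 to -0.05, and it missed the threshold in edgeR (adjusted p = 0.0639) and in DESeq2 (adjusted p = 0.0683). With vehicle it was -0.19 ± 0.063 (edgeR adjusted p = 0.0928), and with mPF4 it was -0.09 ± 0.068 (edgeR adjusted p = 0.788).

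The side of the threshold on which Reln fell rested on single libraries. In edgeR, the averaged difference passed in 5 of 47 fits that left out 1 library, with adjusted p = 0.0341 without Young Veh replicate 2, 0.0366 without Young Veh replicate 4, 0.0303 without Aging Veh replicate 5, 0.0374 without Aging Veh replicate 6 and 0.0442 without Aging mPF4 replicate 7. The log2 fold change in all 47 fits stayed between -0.16 and -0.12. With vehicle it passed in 2 of 25 such fits, without Young Veh replicate 2 (adjusted p = 0.0490) and without Aging Veh replicate 5 (adjusted p = 0.0436), and without Aging Veh replicate 1, the lowest mouse, it was -0.15 (adjusted p = 0.185). It also passed once the length index, the log2 level of genes with long transcripts minus that of genes with short ones, was a covariate: -0.21 with vehicle (adjusted p = 0.0419) and -0.15 in the average (adjusted p = 0.0358). With the library number as a covariate it shrank to -0.061 with vehicle (adjusted p = 0.965) and -0.023 in the average (adjusted p = 1.00). Cajal-Retzius markers were scarce, and only 2 of 5 had enough reads to be tested. The summed level of the 5 had medians of 5.63 CPM in young and 3.98 in aging mice with vehicle, and 6.64 and 4.13 with mPF4, with overlapping ranges. Of the 2 tested, 0 were called with vehicle and 1, Nhlh2, was called lower in the average (-0.65, edgeR adjusted p = 0.0082), where 1.41% of all genes tested were. Lhx1, Lhx5 and Ebf3 were at 0 in 12, 22 and 11 of 47 libraries, Trp73 and Nhlh2 had median counts of 34 and 15 reads, and the summed level of the 5 spanned 4.42 to 6.97 CPM (vehicle) and 3.52 to 8.36 (mPF4) in young mice and 2.77 to 7.85 (vehicle) and 3.14 to 5.67 (mPF4) in aging mice. Over 47 libraries that sum did not pass with Reln (r = -0.18, permutation adjusted p = 0.484). In Young mPF4, Aging Veh and Aging mPF4 the mouse with the highest sum also had the highest choroid plexus level of its group. In Young Veh it did not. Choroid plexus markers averaged lower in aging mice, and their part in the sum was not tested. The part of Cajal-Retzius cells in the difference of Reln was not tested. The antisense gene Gm10475 overlaps Reln exons but held 401 reads against 14764.

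Vip, the neuropeptide of the interneurons that target other interneurons (chr10:5639218-5647617, plus strand), had a similar pattern to Reln with vehicle. With vehicle, young mice spanned 19.3 to 32.9 CPM around a median of 24.8 and aging mice 11.3 to 27.7 around 22.6. With mPF4, the spans were 17.2 to 33.8 around 25.7 and 20.3 to 30.8 around 24.9. No aging mouse lay above all young mice and 1 lay below them. With vehicle the log2 fold change with age was -0.21 ± 0.093 (edgeR adjusted p = 0.259), with mPF4 it was -0.03 ± 0.098 (adjusted p = 0.980), and in the average -0.12 ± 0.068 (adjusted p = 0.348). The lowest value again belonged to Aging Veh replicate 1, and without that mouse the difference with vehicle was -0.15 (adjusted p = 0.428). The same mouse had the highest summed level of principal-cell markers of all 47 (5387 CPM) and the lowest of thalamic markers (78.5 CPM). The part of that in its Vip and Reln levels was not tested.

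The other markers differed less with age. In the average, Slc32a1 was at -0.12 ± 0.078 (edgeR adjusted p = 0.395), and at -0.074 without Young mPF4 replicate 7, its highest mouse. In the same average Gad2 was at -0.07 ± 0.044 (edgeR adjusted p = 0.415) and Gad1 at -0.0055 ± 0.029 (adjusted p = 0.959), an interval of -0.06 to 0.05. On a linear scale the interval of Gad1 reached from -4.37% to 3.77%. Npy, the neuropeptide Y of ivy, neurogliaform and many somatostatin cells (chr6:49822710-49829507, plus strand), was at 0.11 ± 0.057 (adjusted p = 0.269). With vehicle it spanned 40.2 to 72.9 CPM in young mice around a median of 52.0 and 50.3 to 69.7 in aging mice around 56.2, a log2 fold change of 0.10. With mPF4 it spanned 44.4 to 60.5 in young mice around 50.6 and 37.9 to 77.4 in aging mice around 55.5, a log2 fold change of 0.13 that was 0.075 without Aging mPF4 replicate 1 and 0.076 without replicate 8. The aging mPF4 group was the widest, with 3 of 10 mice above and 1 below all 12 young mPF4 mice. Pvalb was at 0.11 ± 0.069 (adjusted p = 0.414), Cck at -0.07 ± 0.045 (adjusted p = 0.456), Lamp5 at 0.04 ± 0.063 (adjusted p = 0.806) and Sst at -0.02 ± 0.055 (adjusted p = 0.925). With the choroid plexus score as a covariate, Lamp5 turned to -0.06 (adjusted p = 0.688) and Cck moved to -0.14 (adjusted p = 0.0613). With the library number as a covariate, the averaged differences of Gad1, Gad2, Slc32a1, Pvalb, Sst and Lamp5 changed sign and none of the 10 was called.

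**Figure D3:**
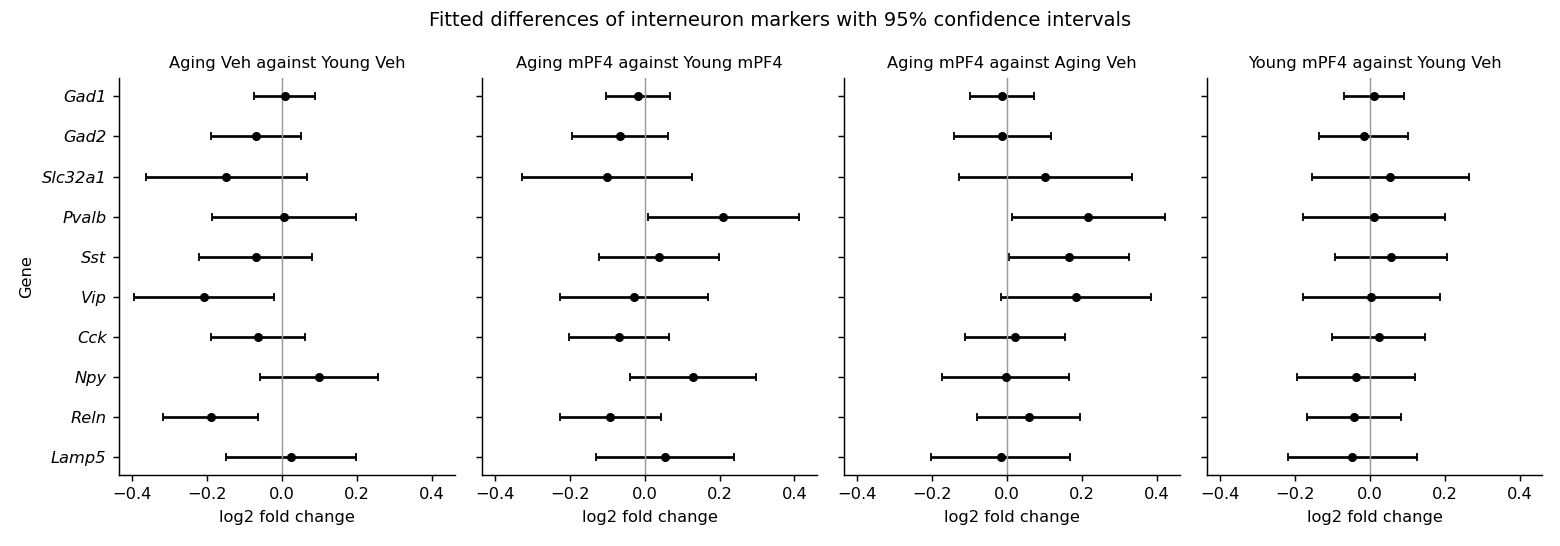
Log2 fold change of each marker in 4 comparisons, as points with 95% confidence intervals from the fit to all 47 libraries and a grey line at 0. With age in vehicle mice the intervals of Vip and Reln lie below 0, and with age in mPF4 mice that of Pvalb lies above 0. With mPF4 in aging mice those of Pvalb and Sst lie above 0, and in young mice with mPF4 every interval spans 0.

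To ask whether mPF4 alters the markers, treated mice were compared with vehicle mice at each age. In aging mice 0 of 10 markers passed the adjusted threshold, against 0.0337% of all genes tested (0.0112% higher and 0.0225% lower), and DESeq2 called 0 of 10 as well, against 0.173% of the genes it adjusted. At an unadjusted p under 0.05 Pvalb and Sst passed, where 6.2% of all genes tested did. The 10 log2 fold changes ran from -0.02 (Lamp5) to 0.22 (Pvalb), with 6 above 0, a median of 0.04 and a median of 0.0086 over all genes tested. This comparison shares its 12 Aging Veh libraries with the comparison of age in vehicle mice, so a low or high value in those mice enters both. A drift along the numbering of the libraries cannot be told apart from mPF4 here.

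Pvalb encodes parvalbumin (chr15:78191114-78206400, minus strand), the calcium buffer of fast-spiking basket and axo-axonic cells. Aging mice spanned 15.9 to 24.1 CPM around a median of 18.2 when given vehicle and 14.9 to 29.04 around 21.6 when given mPF4. The treated group was the wider one, with 2 of its 10 mice above and 2 below all 12 vehicle mice. The difference was 0.22 ± 0.10 on the log2 scale, an interval of 0.01 to 0.42 (edgeR p = 0.0376, adjusted p = 0.785). Young mice spanned 11.5 to 23.9 CPM around 17.7 with vehicle and 14.1 to 24.3 around 17.9 with mPF4, and the age difference of Pvalb in mPF4 mice was 0.21 ± 0.10 (edgeR adjusted p = 0.571).

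Sst encodes somatostatin (chr16:23889573-23890958, minus strand), the neuropeptide of dendrite-targeting cells such as the oriens-lacunosum moleculare cells of CA1 and the hilar cells of the dentate gyrus. Aging mice spanned 129 to 193 CPM around a median of 163 when given vehicle and 142 to 227 around 179 when given mPF4. Of the 10 treated mice, 4 lay above all 12 vehicle mice and none lay below them. The difference was 0.16 ± 0.080, an interval of 0.0046 to 0.33 (edgeR p = 0.0441, adjusted p = 0.797). Vip was at 0.18 ± 0.10 (edgeR adjusted p = 0.856), with 1 of 10 treated mice above all vehicle mice, and fell to 0.12 (adjusted p = 0.962) without Aging Veh replicate 1. Reln was at 0.06 ± 0.068 (adjusted p = 0.987), and at 0.011 without that mouse and 0.089 without Aging Veh replicate 5. Leaving out Aging mPF4 replicate 8, which held the highest Pvalb and Sst of all 47 mice, brought Pvalb to 0.16 and Sst to 0.12. That mouse also had the lowest summed level of principal-cell markers of all 47 (2718 CPM) and a length index of -0.23, where the means of the 2 groups were 0.039 (vehicle) and -0.025 (mPF4). With the length index as a covariate Pvalb was at 0.14 (adjusted p = 0.769) and Sst at 0.09 (adjusted p = 0.812).

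In young mice edgeR and DESeq2 called 0 of 10 markers and 0 of all genes tested with mPF4 (0% called), and no marker had an unadjusted p under 0.05, where 1.2% of all genes tested did. The log2 fold changes ran from -0.05 ± 0.086 (Lamp5) to 0.06 ± 0.074 (Sst), and the 95% intervals of the 10 together reached from -0.22 to 0.26. The effects of mPF4 at the 2 ages were compared with an interaction term, for which 0 of 10 markers and 0 of all genes tested were called (0%) by either tool, and 0 of 10 passed at an unadjusted p under 0.05, where 3.98% of all genes tested did. The largest differences between the ages were 0.20 ± 0.14 for Pvalb, 0.18 ± 0.14 for Vip and 0.11 ± 0.11 for Sst, and the lowest was -0.03 ± 0.059 for Gad1. Without Aging Veh replicate 1 that of Vip was 0.11, without Aging mPF4 replicate 8 or 11 that of Sst was 0.061 or 0.062, and with the length index as a covariate Pvalb was at 0.11 and Sst at 0.0087. The edgeR adjusted p was 1 for each, so no difference between the ages in the effect of mPF4 was shown for any marker.

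Whether the markers rise and fall together between mice was tested on log2 CPM after the group means were subtracted, over 47 libraries and 45 pairs. Of these, 4 pairs passed an adjusted p of 0.05 in a two-sided permutation test within groups, all of them positive, and the median r of the 45 was 0.070. The neuropeptides Sst and Npy, which the same cells often make, gave r = 0.66 and rho = 0.66 (permutation p = 1e-05, the smallest the 100000 resamples could give, adjusted p = 0.00015). Gad2 and Slc32a1 gave r = 0.62 and rho = 0.56 (permutation p = 1e-05, adjusted p = 0.00015). Gad1 and Gad2 gave r = 0.60 and rho = 0.59 (permutation p = 1e-05, adjusted p = 0.00015). Pvalb and Sst gave r = 0.47 and rho = 0.42 (permutation p = 0.0025, adjusted p = 0.0281). Without the 2 mice farthest from the median of the first gene these became 0.61, 0.58, 0.56 and 0.37, with no test at that size. By Spearman's rho 4 pairs passed as well, Gad1 with Lamp5 (rho = 0.43, permutation adjusted p = 0.0440) in place of Pvalb with Sst (adjusted p = 0.0536). Gad1 and Slc32a1, which are used by the same terminals, gave r = 0.19 (permutation adjusted p = 0.363), and Vip with Npy gave the lowest r of all pairs, -0.29 (adjusted p = 0.117).

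**Figure D4:**
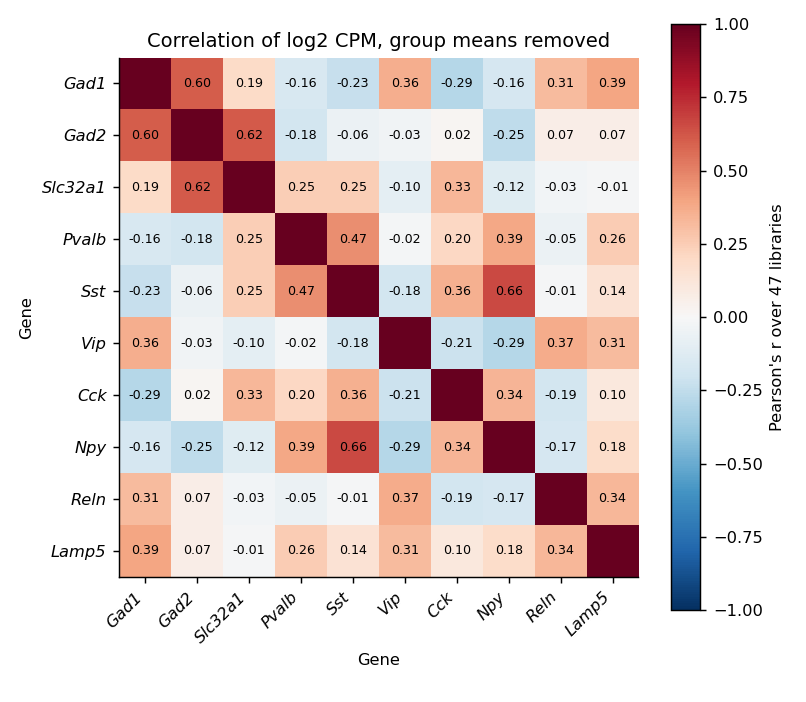
Pearson's r between the log2 CPM of each pair of markers over 47 libraries after group means were subtracted, with red for positive and blue for negative values. The darkest cells off the diagonal are Sst with Npy (0.66), Gad2 with Slc32a1 (0.62) and Gad1 with Gad2 (0.60).

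**Figure D5:**
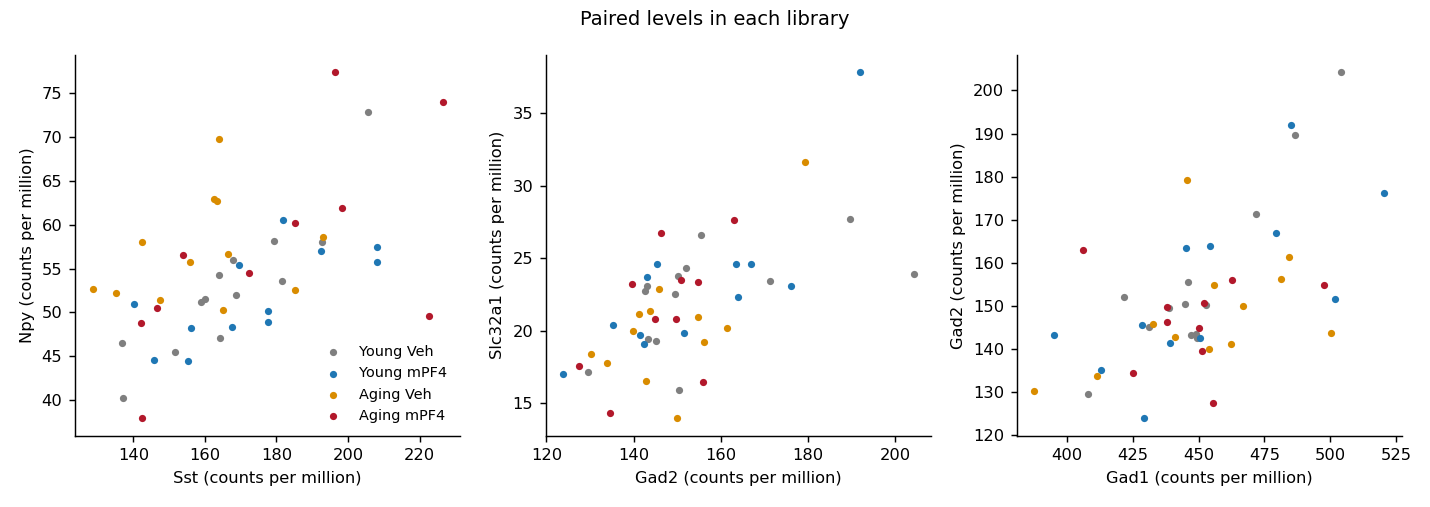
Levels of the 3 most correlated pairs of markers in CPM, 1 point per mouse, coloured by group. In each panel mice with more of 1 gene tend to have more of the other, and the 4 groups are intermixed along the trend.

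Some of this shared variation moved with measures of the library. The length index correlated with Gad2 (r = 0.55) and Gad1 (r = 0.37), whose longest transcripts have 5744 and 3601 bases, and with Npy (r = -0.53), Sst (r = -0.52) and Pvalb (r = -0.48), which have 566, 721 and 977 bases (permutation adjusted p over 80 relations 0.0048, 0.0454, 0.0049, 0.0032 and 0.0122). Without the 2 mice farthest from the median of the index the 5 values became 0.47, 0.35, -0.32, -0.41 and -0.34. Cck, of 799 bases, did not pass (r = 0.12, permutation adjusted p = 0.604), and neither did Reln, which has the longest transcript of the 10 at 11699 bases (r = 0.20, adjusted p = 0.379). The log10 total count of the library passed with Gad2 (r = -0.41, permutation adjusted p = 0.0381) and Sst (r = 0.37, adjusted p = 0.0454), which became -0.27 and 0.35 without the 2 farthest libraries. After the length index and the choroid plexus score were removed along with the group means, Sst with Npy was at 0.46 (permutation adjusted p = 0.0446), Gad2 with Slc32a1 at 0.59 (adjusted p = 0.000675), Gad1 with Gad2 at 0.53 (adjusted p = 0.0035) and Pvalb with Sst at 0.26 (adjusted p = 0.224), so the last pair was no longer called. That removal, added after the data were seen, brought 9 pairs past the threshold, 2 of them negative: Gad1 with Cck (r = -0.63, permutation adjusted p = 0.000675) and Vip with Npy (r = -0.38, adjusted p = 0.0446).

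Cck stood apart from the rest in what it varied with. It encodes cholecystokinin (chr9:121489824-121495694, minus strand), which marks a class of basket cells and is also made by hippocampal principal cells. Over 47 libraries it correlated with the summed level of principal-cell markers at r = 0.75 and rho = 0.80 (permutation adjusted p = 0.0008), and at 0.81 without the 2 mice farthest from the median of that sum. Its level spanned 161 to 199 CPM with vehicle and 153 to 218 with mPF4 in young mice, and 137 to 212 and 145 to 203 in aging mice. Slc32a1 was the only other of the 10 to pass with those markers (r = 0.39, permutation adjusted p = 0.0454). Cck was lower in mice with more choroid plexus and striatal marker RNA, with r = -0.51 (permutation adjusted p = 0.0057) and r = -0.52 (adjusted p = 0.0048). Lamp5 (chr2:136052239-136069917, plus strand), a membrane protein of neurogliaform and related cells, did so with choroid plexus (r = -0.47, permutation adjusted p = 0.0100) and with Cajal-Retzius markers (r = -0.51, adjusted p = 0.0048). Npy passed with choroid plexus (r = -0.38, permutation adjusted p = 0.0476) and striatal markers (r = -0.37, adjusted p = 0.0454), and Gad1 with Cajal-Retzius markers (r = -0.44, adjusted p = 0.0327). Gad2 correlated with thalamic markers (r = 0.51, rho = 0.61, permutation adjusted p = 0.0048), and so did Gad1 (r = 0.40, adjusted p = 0.0476). Without the 2 farthest mice these values became 0.55 and 0.26. Slc32a1 did not pass by r (0.33, permutation adjusted p = 0.143) but passed by rho (0.44, adjusted p = 0.0193), and its r was 0.49 without those mice. The summed thalamic markers spanned 78.5 to 177 CPM in aging mice and 80.4 to 481 in young mice, of which Young mPF4 replicate 8 was the highest. The part of unequal dissection in these relations was not tested.

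The transcription factors and RNA-binding proteins of the interneuron lineage gave a further measure. Their summed level correlated with Lamp5 (r = 0.43, permutation adjusted p = 0.0260), Gad1 (r = 0.42, adjusted p = 0.0327), Pvalb (r = 0.39, adjusted p = 0.0454) and Gad2 (r = 0.37, adjusted p = 0.0491), and did not pass with the other 6 markers, with Cck lowest at -0.19.

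The 3 tested genes whose log2 CPM was most like each marker, by Pearson's r over 47 libraries with group means subtracted, are given as a description. For Gad1 they were Dner (0.74), Ivns1abp and Gng4. For Gad2 they were Glp1r (0.76), Gnal and Baiap3. For Slc32a1 they were the overlapping Gm14205 (0.89), Sp9 (0.72) and Tmem130. Sp9 is a transcription factor of the interneuron lineage. For Pvalb they were Tmsb10 (0.75), Txn1 and Cltb, and for Sst they were Gng13 (0.75), Eif1b and Cox5a. For Npy they were Bdnf (0.77), Sh3bgrl3 and Ndufa5. Bdnf is a neurotrophin made mainly by principal cells. For Vip they were Serpini1 (0.76), Vwc2l and Garnl3, and for Cck they were Nrgn (0.87), Rnasek and Basp1. Nrgn, neurogranin, is a protein of principal-cell dendrites. For Lamp5 they were Asap1 (0.76), Arpp21 and Mef2c, and for Reln they were Ptger3 (0.69), 5530401A14Rik and Gm28928. The likeness of Ptger3 to Reln fell to 0.45 without the 2 farthest mice. Of the 100 genes most like Sst the median transcript length was 1035 bases, against 1361 for Pvalb, 4030 for Gad2 and 3150 for all genes tested.

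The cAMP response element, TGACGTCA, is the textbook element of the Sst promoter that CREB binds, and its letters were looked for before the start sites of all 10 markers as a description. In RefSeq windows of 250 bases before each start (GRCm38.p6), which matched all 10 markers, the full element stood only in that of Sst, and 1.55% of 32851 windows hold it. The shorter TGACG, read on either strand and contained in the full element, stood in those of Gad2, Cck, Vip and Sst, and 17.8% of all windows hold it. Stretches of 30 bases around these matches are shown on the gene's strand, 5′ to 3′, with the match in capitals.
Sst, chr16:23890874-23890903: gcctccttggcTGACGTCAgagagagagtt
Gad2, chr2:22622281-22622310: tccatttcccttcCGTCActctctcatctc
Cck, chr9:121495725-121495754: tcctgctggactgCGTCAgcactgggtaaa
Vip, chr10:5639126-5639155: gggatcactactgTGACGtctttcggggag
The element of Sst began 48 bases before its start. The starts are those of RefSeq, and for Sst and Gad2 they lie inside the longer gene spans given above, so the stretches printed for these genes overlap bases annotated as transcribed. Neither search matched the windows of Npy, Slc32a1, Gad1, Pvalb, Reln or Lamp5. No match says only that these letters are not in these windows.

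Around the 10 markers, 7 lists of genes of the same cells and pathways were read in the same fit. They hold 65 tested genes. With vehicle, aging mice had 4 of the 65 called higher and 1 called lower, where 2.16% of all genes tested were called higher and 0.607% lower. Adarb2, an RNA-binding protein of interneurons from the caudal ganglionic eminence, rose by 0.34 ± 0.057 on the log2 scale (edgeR adjusted p = 0.000157), from a median of 50.1 CPM in Young Veh to 59.8 in Aging Veh. It was the only 1 of 15 tested lineage regulators to be called, and it also rose in the average (0.22, adjusted p = 0.000521). In mPF4 mice 0 of the 65 were called with age, beside 0.332% of all genes tested, and 4 had an unadjusted p under 0.05, beside 8.27%. There Adarb2 was at 0.10 (edgeR adjusted p = 0.694), Kcnc2 at 0.041 (adjusted p = 0.905), Erbb4 at 0.12 (adjusted p = 0.732) and Dab1 at 0.086 (adjusted p = 0.558). The differences between the treatments in these age effects were not called (interaction adjusted p = 1 for each). Of 10 parvalbumin cell genes 2 rose with vehicle. They were Kcnc2, a potassium channel subunit of fast-spiking cells (0.18 ± 0.048, edgeR adjusted p = 0.0262), and Erbb4, the neuregulin receptor of interneurons (0.26 ± 0.074, adjusted p = 0.0379). Erbb4 was also called in the average (0.19, adjusted p = 0.0263). Pvalb itself was at 0.0058 with vehicle. The call of Erbb4 with vehicle was kept in 12 of 25 fits that left out 1 library, and it was lost with the length index as a covariate (adjusted p = 0.0604). Without the 8 shallowest libraries neither Kcnc2 (adjusted p = 0.0790) nor Erbb4 (adjusted p = 0.131) was called with vehicle.

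A list of 14 tested genes held receptors for these neuropeptides and for reelin, of which none was called with age, and 1 further gene, Dab1, which was called both with vehicle (2.77% of all genes tested were) and in the average (4.71% were). Dab1, the adaptor that carries the reelin signal inside the receiving neuron, rose by 0.14 ± 0.038 with vehicle (edgeR adjusted p = 0.0257) and by 0.11 ± 0.028 in the average (adjusted p = 0.0076). It ran from 152 to 176 CPM in Young Veh and from 171 to 209 in Aging Veh. The ranges overlapped, and the Aging Veh median, 175.6, lay under the highest Young Veh value, 176.3. With the choroid plexus score as a covariate the call was lost both with vehicle (adjusted p = 0.136) and in the average (adjusted p = 0.114). Of 5 neurogliaform cell genes, Id2, a regulator of transcription also found outside these cells, was lower with age in vehicle mice (-0.17 ± 0.046, edgeR adjusted p = 0.0295) and higher with mPF4 in aging mice (0.25 ± 0.049, adjusted p = 0.0347). It ran from 115 to 153 CPM in Aging Veh and from 148 to 170 in Aging mPF4, and those 12 vehicle mice are shared by both comparisons. Beside these calls, 0.607% of all genes tested were called lower with age in vehicle mice and 0.0112% higher with mPF4 in aging mice. The call with mPF4 was kept in 10 of 22 fits that left out 1 library, and was also lost with the length index as a covariate (adjusted p = 0.0647). The log2 fold change stayed between 0.23 and 0.26 in those 22 fits. Under 10 other alternatives, 6 of which kept the call, it stayed between 0.22 and 0.27.

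The other lists held no called gene in any comparison by edgeR or DESeq2. They were 5 genes of GABA uptake and breakdown, 8 tested genes of somatostatin cells and 8 of Vip, Cck and calretinin cells, of which 2, 1 and 4 had an unadjusted p under 0.05 in the averaged age comparison, where 19% of all genes tested did. Their smallest p there belonged to Abat, the GABA transaminase (-0.08, edgeR adjusted p = 0.106), to Nos1 (0.12, adjusted p = 0.0791) and Crhbp (0.07, adjusted p = 0.610), and to Htr3a, the ionotropic serotonin receptor of these cells (0.17, adjusted p = 0.131), and Tac2 (-0.26, adjusted p = 0.133). Among the lists for other cells, Nhlh2 of the Cajal-Retzius list fell with age in the average (-0.65 ± 0.16, adjusted p = 0.0082) and in mPF4 mice (-1.02 ± 0.23, adjusted p = 0.0277), at counts of 1 to 38 reads. The 10 principal-cell, 5 thalamic and 10 choroid plexus markers had no called gene by edgeR or DESeq2, while 4, 1 and 6 of them had an unadjusted p under 0.05 in the averaged age comparison, beside the same 19%, with the smallest p for Dsp and C1ql2, for Lef1 and Tcf7l2, and for Calml4 and Folr1.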

How the data were processed

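RNA from the homogenised hippocampus of single mice was made into unstranded Smart-Seq2 and Nextera XT libraries, and the authors deposited unnormalised read counts by gene. By the submitters' processing notes, reads were trimmed with Trim Galore 0.3.7 and aligned with STAR 2.5.3a to GRCm38; the counting tool and its annotation are not given in the sources used here. Libraries of low coverage had been excluded by the authors and none was left out here. Groups came from the age and treatment labels, and each mouse was 1 replicate.

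Counts of 35486 genes in 47 libraries were fitted with the quasi-likelihood test of edgeR 4.0.16 (R 4.3.3), with TMM normalization, filterByExpr by group, all 4 groups in 1 fit and Benjamini-Hochberg adjustment over 17778 genes at 0.05. The study used DESeq2, which (version 1.42.0) was an alternative here. Standard errors came from the fold change and its F statistic, and intervals are at 95%. Log2 CPM used a prior count of 2. Lengths came from the longest GENCODE M21 transcript. The length index contrasted genes of at least 4594 bases with those of at most 2006. Correlations used group residuals and 100000 permutations within groups (NumPy 2.4.6, SciPy 1.17.1), adjusted over 45 pairs or 80 relations. Promoter windows came from RefSeq. The edgeR fit was tested on simulated counts, and Pearson's r on a simulated pair of genes.

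Named were the 10 markers, every called gene of the other lists or else the 2 of smallest p in the averaged age comparison, and the 3 genes most like each marker. Some of these genes are not reported here. Markers, lists and tests were chosen with earlier results of these data known. The alternatives were DESeq2, its size factors, no filter or at least 1 CPM in 10 libraries, the compared groups alone, a replicate block, 3 covariates (choroid plexus score, length index, library number), leaving out the 8 shallowest libraries and leaving out each library in turn. Depth sets the precision of the genes with few reads.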

Additional observations from a re-analysis of the deposited data

How the results depend on the processing

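The count of markers called was 0 of 10 in every comparison and changed under few alternatives. It became 1, Reln, for age averaged over treatments and for age with vehicle with the length index as a covariate, and in the average with a replicate block. Fits that left out 1 library gave 0 to 1 in both comparisons. Replicate numbers did not pair the mice (mean correlation of deviations 0.018 for the same number, best match to the own number in 6 of 47). With the replicate number as a block the averaged difference of Reln was -0.15 (edgeR adjusted p = 0.0338), that of Dab1 with vehicle lost its call (0.14, adjusted p = 0.0594) and no other named call changed, while genes called went from 59 to 90 for age with mPF4 and from 6 to 10 for mPF4 in aging mice.

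Signs of small differences turned. In the average over treatments, with the library number as a covariate, the values were 0.043 for Gad1, 0.12 for Gad2, 0.072 for Slc32a1, -0.044 for Pvalb, 0.021 for Sst and -0.16 for Lamp5. For age, that covariate gave 0.067 for Slc32a1 and -0.019 for Npy with vehicle, and 0.076 for Slc32a1 and 0.015 for Reln with mPF4. For mPF4, it gave -0.0014 for Reln and 0.084 for Lamp5 in aging mice and 0.013 for Lamp5 in young mice. The numbering separates the ages completely, and in aging mice it also separates the treatments completely. With the choroid plexus score, Lamp5 was at -0.060 in the average and 0.0057 for mPF4 in aging mice. With the length index, Sst was at 0.0013 in the average and the interaction of Gad1 at 0.0051. Without the 8 shallowest libraries Gad1 was at 0.00032 in the average. Leaving out 1 library at a time, Gad1 ran from -0.016 to 0.0044 and Sst from -0.038 to 0.0029 in the average, Vip with age in mPF4 mice from -0.064 to 0.022, and Lamp5 with mPF4 in aging mice from -0.062 to 0.027. The cause was not tested in any of these.

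Pairs of markers called went from 4 to 8 without the 8 shallowest libraries and to 9 after the length index and choroid plexus score were removed. The number of all genes called depended more on the settings. For age with vehicle it was 492, 901 with the length index, 176 without the 8 shallowest libraries and 0 with the library number. For the average it was 838, and 1398, 437 and 0 under the same settings. For age with mPF4 it was 59, and 90 by DESeq2, 98 with the length index, 21 with the compared groups alone and 0 with the library number. For mPF4 in aging mice it was 6, and 24 by DESeq2, 10 with the choroid plexus score and 0 with the compared groups alone, with the length index, with the library number and without the 8 shallowest libraries. The interaction called 0 genes, and 1 with no filter. Leaving out 1 library gave 356 to 593, 674 to 1092, 36 to 91 and 0 to 20 genes for these 4 comparisons.

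Among the other named genes, Erbb4 with vehicle lost its call without Young Veh replicates 2, 4, 7, 8, 10 or 12 or Aging Veh replicates 3, 4, 5, 6, 7, 8 or 10 (adjusted p = 0.0507 to 0.0852). Id2 with vehicle lost it without Young Veh replicates 6 or 8 or Aging Veh replicates 1, 4, 5 or 7 (0.0503 to 0.0652), and with mPF4 without Aging Veh replicates 1, 2, 3, 4, 5 or 7 or Aging mPF4 replicates 5, 6, 7, 8, 9 or 11 (0.0515 to 0.0756). Nhlh2 in mPF4 mice lost it without Young mPF4 replicate 11 or Aging mPF4 replicates 2, 10 or 11 (0.0524 to 0.0757). Without the 8 shallowest libraries Kcnc2, Erbb4 (also in the average, 0.0985) and Id2 (0.0956 with vehicle, 0.188 with mPF4) lost their calls, with the choroid plexus score Kcnc2 (0.0987), Erbb4 (0.0687, and 0.0622 in the average), Dab1 and Id2 with vehicle (0.0565) did, at log2 fold changes with vehicle of 0.16 for Kcnc2, 0.26 for Erbb4, 0.11 for Dab1 and -0.17 for Id2, and with the library number, under which no gene of the table was called, every call of a list gene was lost, while Adarb2 was at 0.33 with vehicle and 0.21 in the average and Nhlh2 at -0.80 in the average. With the compared groups alone Erbb4 (0.0600), Id2 (0.0559 with vehicle, 0.0972 with mPF4) and Nhlh2 (0.128) lost their calls, and with no filter Erbb4 (0.0510) and Dab1 (0.0622) did. The call of Adarb2 was kept in all 25 fits that left out 1 library with vehicle and all 47 in the average.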
